A study of Oryza sativa Japonica Group with 10 samples.

Results

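The auxin response families of rice are described here: the Aux/IAA repressors (IAA), the auxin response factors (ARF) and the GH3 conjugating enzymes. Members are all genes whose symbol or synonym in the probe annotation or the RefSeq gene table is IAA, ARF or GH3 followed by a number, with or without the prefix Os. The rule itself uses no measured value. The rule found 60 genes, 28 IAA, 23 ARF and 9 GH3. A probe set assigned to exactly 1 gene was present for 52 of them, out of 17905 genes with such a probe set on the array. Each gene is represented by its probe set with the highest mean log2 signal over the 10 arrays. Of the 52, 45 passed the filter on low signals (23 IAA, 16 ARF and 6 GH3). The filter level is a signal of 23.9, the 40th percentile of the mean log2 signals of all probe sets. Below it were ARF13, GH3.1, GH3.9, GH3.11, IAA8, IAA14 and IAA16. No one-gene probe set was assigned to ARF5, ARF6, ARF8, ARF19, ARF21, ARF25, IAA11 or IAA29, which were not analysed here. In 12 genes the gene table gives several family numbers. Where it did, the number that follows chromosome order was used, so that ARF23, for example, is the gene also listed as OsARF1, and ARF1 the gene also listed as OsARF16.

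The samples were seedlings of the japonica cultivar Zhonghua 10, 1 week old by the study's title. They had spent 6, 24, 48 or 72 h in a phosphate-deficient solution (low Pi), or had grown with sufficient phosphate (control). Each of these 5 groups had 2 arrays, labelled as biological replicates from independent plants. Arrays 1 and 2 of a group below are its replicates 1 and 2. No control of matching duration is among the samples analysed here and the labels do not give the control's harvest time, so seedling age and time of day cannot be told apart from low phosphate. They do not give the number of seedlings behind a sample either. In bulk RNA from seedlings, fewer cells of a type and less RNA per cell cannot be told apart.

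In the absence of auxin, Aux/IAA proteins bind ARF proteins at the promoters of auxin-responsive genes and keep these genes off through TOPLESS-type co-repressors. Auxin joins an Aux/IAA protein to a receptor of the TIR1/AFB family, the Aux/IAA protein is degraded, and the ARF is released. Many IAA and GH3 genes are themselves transcribed in response to auxin, so both repression and hormone inactivation act as feedback on the pathway. GH3 enzymes join amino acids to auxin, or in some members to jasmonate, which stores, removes or activates the hormone. Auxin signalling shapes lateral roots and root hairs, the structures by which roots explore soil for phosphate, and ARF12 and ARF16 have been studied in rice as regulators of phosphate homeostasis.

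The values are MAS5 signals on a linear scale, and every change below is a difference of group means of log2 signals. Errors are limma standard errors (n = 2 arrays per group), and p is adjusted with Benjamini-Hochberg over all 34355 tested probe sets. A gene is said to rise or fall where adjusted p was under 0.05. The 4 comparisons with the control share the same 2 control arrays. All 10 arrays had a trimmed mean of 500.1, and their median signals lay between 47.6 and 54.2, except at 72 h, where they were 69.3 and 68.5. The 72 h arrays also had the highest 3′ over 5′ ratios of control transcripts. For Gapdh the log2 ratio was 2.35 and 2.57 at 6 h, 1.56 and 1.44 at 24 h, 1.67 and 1.49 at 48 h and 4.73 and 5.48 at 72 h, against 1.89 and 1.61 in the control. For the spiked bacterial transcript dap it was 3.68 and 3.75 at 6 h and 5.79 and 6.73 at 72 h, against 1.91 and 1.71 in the control. Summed signals of 10 root markers were 110657 to 112758 at 6 h, 97914 to 99842 at 24 h, 96151 to 99788 at 48 h and 96219 to 96423 at 72 h, against 72252 to 73736 in the control. Of these 10, 3, 3, 4 and 6 rose at the 4 times and 3, 2, 1 and 0 fell. NAS1, NAS2 and NAAT1, genes of iron uptake, made up 70809 to 70874 of this sum at 6 h, 66871 to 66873 at 24 h, 51549 to 52812 at 48 h and 40476 to 40919 at 72 h, against 24635 to 24841 in the control. The other 7 summed to 39848 to 41883 at 6 h, 31043 to 32969 at 24 h, 44602 to 46976 at 48 h and 55300 to 55947 at 72 h, against 47618 to 48895 in the control. Summed signals of 9 shoot markers were 78686 to 78720 at 6 h, 40660.0 to 40671 at 24 h, 57454 to 60748 at 48 h and 45434 to 46199 at 72 h, against 69469 to 70308 in the control. Of the 7 shoot markers tested, 5, 3, 3 and 2 rose and 1, 3, 2 and 4 fell. The lower sum at 24 h came mostly from CAB2R, with 4012 and 4038 at 24 h against 37178.5 and 37972.5 in the control. RCABP89, PORB and PORA were also lower at 24 h than in the control. RBCS (20073 and 19754, against 15143 and 15058), PSB28 and GLK1 were higher. Seed reserve markers, mostly the amylase AMY3D, summed to 375 to 428 at 6 h, 1190 to 1225 at 24 h, 446 to 512 at 48 h and 1321 to 1343 at 72 h, against 4015 to 4212 in the control, and 5 of 9 were below the filter level. The part of RNA quality and of tissue makeup in the results below was not tested.

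The auxin families changed most often at 24 h, and then mainly upwards. At 6 h, 12 of the 45 tested members rose (26.7%) and 9 fell, while over all tested probe sets 19% rose and 17.2% fell. At 24 h, 26 members rose (57.8%) and 7 fell, against 20.6% and 19.2% of all tested probe sets. At 48 h, 23 rose (51.1%) and 3 fell, against 19.4% and 12.5%. At 72 h, 17 rose (37.8%) and 8 fell, against 21.9% and 17.6%. Members were brighter than most probe sets, and all 45 lay among the 22903 probe sets above the 60th percentile. In that brighter set 28%, 29.7%, 29.8% and 30.1% rose at 6, 24, 48 and 72 h, and 25.4%, 27.8%, 18.9% and 25.4% fell. The members' own shares of falls were 20%, 15.6%, 6.67% and 17.8%. The median change of the members was 0.18, 0.41, 0.26 and 0.17 at the 4 times, and that of all tested probe sets 0.043, 0.038, 0.11 and 0.16. The 72 h medians are therefore nearly equal. When each array was centred on its own median, the median of all tested probe sets at 72 h became -0.34, and 5 members rose and 20 fell at that time. At 24 h the same centring gave 18 rises and 9 falls. An F-test over the 5 groups passed for 40 of the 45 members, against 61.4% of all tested probe sets (85.1% of the brighter set). The highest group mean fell at 24 h in 21 of 45 members (21.3% of all tested probe sets). The lowest lay in the control in 20 (25.1% of all).

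**Figure D1:**
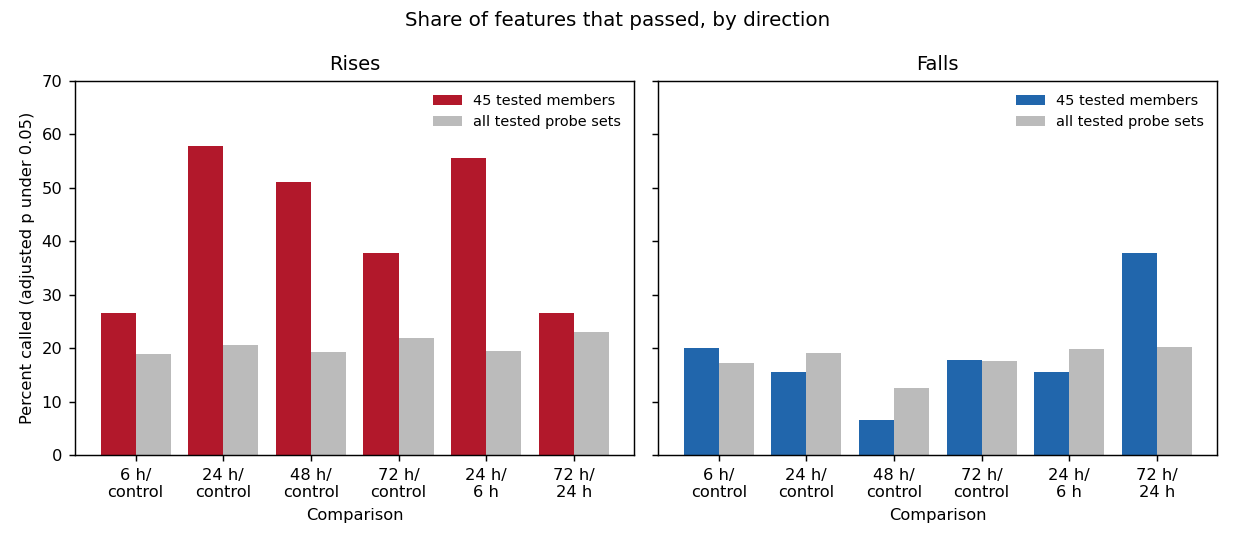
Share of features that rose (left) or fell (right) with adjusted p under 0.05, in percent, for the 45 tested IAA, ARF and GH3 members (coloured bars) and all 34355 tested probe sets (grey bars). The members' share of rises reached 57.8% at 24 h against the control and 55.6% at 24 h against 6 h, and their share of falls 37.8% at 72 h against 24 h.

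Counts are given next by family. Of the 23 IAA genes, 6, 12, 11 and 9 rose at 6, 24, 48 and 72 h and 8, 5, 3 and 6 fell. Of the 16 ARF genes, 5, 9, 8 and 7 rose and 0, 2, 0 and 1 fell. Of the 6 GH3 genes, 1, 5, 4 and 1 rose and 1, 0, 0 and 1 fell. ARF1, ARF7, ARF9, GH3.8, IAA3, IAA6 and IAA23 rose at all 4 times, a pattern of 5.85% of all tested probe sets, and IAA9 fell at all 4, a pattern of 4.22%. A further 19 members had rises and no fall, 6 had 1 or more falls and no rise, 7 had both (11.1% of all tested probe sets), and 5 passed at no time (36.7% of all). For the patterns of the 19 and of the 6 no share of all tested probe sets was computed. None of these patterns was counted in the brighter set, where calls were more frequent. Calls that held under every alternative of processing and without any 1 array numbered 16 of 21 at 6 h, 23 of 33 at 24 h, 13 of 26 at 48 h and 8 of 25 at 72 h. At 72 h these 8 were ARF7, ARF23, IAA7, IAA9, IAA12, IAA20, IAA25 and IAA30. Several alternatives leave the change as it is and refit only its error or the set tested. Refitting is given next for 3 of them (no filter on low values, no intensity trend, only the 2 groups compared). Refitting ended the calls of ARF4, IAA3, IAA23 and IAA31 at 6 h, ARF14, ARF17, GH3.6, IAA3, IAA4, IAA5, IAA7 and IAA26 at 24 h, ARF3, ARF12, ARF24, GH3.2, GH3.7, IAA3, IAA15, IAA21 and IAA25 at 48 h and ARF16, ARF24, GH3.2, GH3.8, IAA1, IAA13 and IAA15 at 72 h (limma adjusted p = 0.0504 to 0.211).

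**Figure D2:**
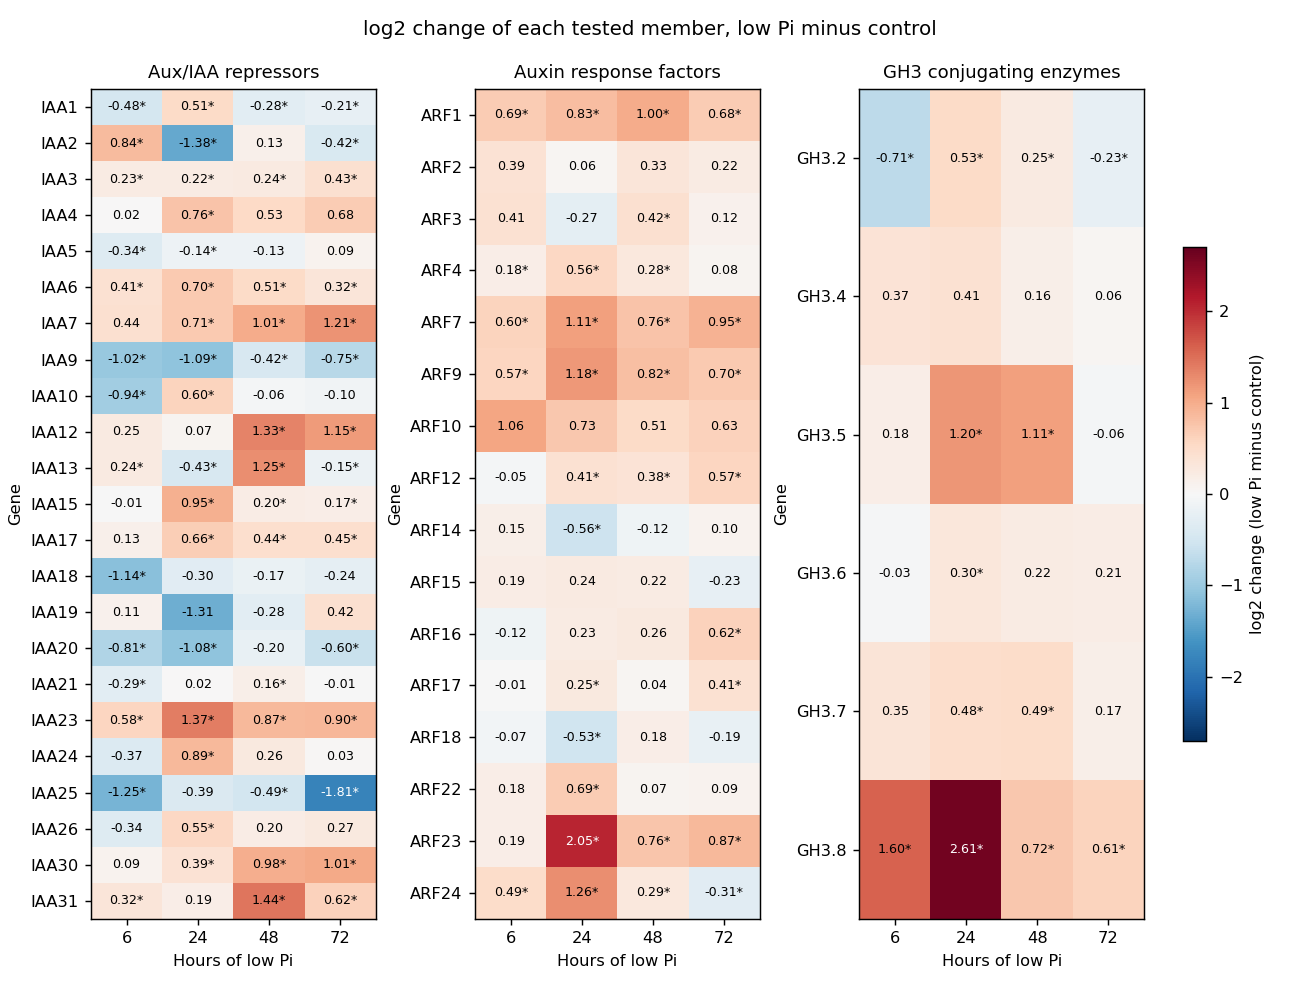
log2 change of each of the 45 tested members at 6, 24, 48 and 72 h of low Pi minus control (columns), by family; asterisks mark adjusted p under 0.05 (limma). The ARF panel holds 3 falls in all (ARF14 and ARF18 at 24 h, ARF24 at 72 h), and the largest change is the GH3.8 rise of 2.61 at 24 h.

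Among the GH3 enzymes, GH3.8 showed the largest change of any member. GH3.8 forms amino acid conjugates of indole-3-acetic acid, the main natural auxin. Its signal was 492 and 452 at 6 h, 1031 and 882.5 at 24 h, 255.5 and 258 at 48 h and 206 and 274 at 72 h, against 133 and 183 in the control. All low Pi arrays lay above both control arrays. GH3.8 rose by 1.60 ± 0.19 at 6 h (limma adjusted p = 3.35e-05) and by 2.61 ± 0.19 at 24 h (limma adjusted p = 3.43e-07), which is 6.12-fold. The rises at 48 h (0.72, limma adjusted p = 0.0124) and 72 h (0.61, limma adjusted p = 0.0242) were smaller. The 48 h call ended without control array 1 (0.48, limma adjusted p = 0.111), without 48 h array 1 (0.72, limma adjusted p = 0.0581) or without 48 h array 2 (0.71, limma adjusted p = 0.0639), and the 72 h call without control array 1 (0.37, limma adjusted p = 0.192) or without 72 h array 2 (0.40, limma adjusted p = 0.179). The call of GH3.8 at 72 h (0.11, limma adjusted p = 0.703) ended with median centring. The call of GH3.8 at 48 h (0.52, limma adjusted p = 0.0635) ended with quantile normalization. Between 6 and 24 h GH3.8 rose by 1.02 ± 0.19 (limma adjusted p = 0.000978), and at 72 h its change from 24 h was -2.005 (limma adjusted p = 3.72e-06).

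GH3.5, the rice counterpart of the jasmonate-conjugating enzyme JAR1, had signals of 480.2 and 489 at 6 h, 1113 and 872.5 at 24 h, 931 and 927 at 48 h and 411 and 414 at 72 h, against 573 and 321 in the control. It rose by 1.20 ± 0.21 at 24 h (limma adjusted p = 0.000609) and 1.11 ± 0.21 at 48 h (limma adjusted p = 0.00156), and all 4 of these arrays lay above both control arrays. At 6 and 72 h its changes of 0.18 and -0.056 did not pass. The control arrays themselves lay far apart, and the 6 and 72 h arrays lay between them. Without control array 1 GH3.5 also passed at 6 h, and without control array 2 it passed as a fall at 72 h (limma adjusted p = 0.0341). GH3.2, the brightest GH3 member and also an auxin-conjugating enzyme, moved in both directions. Its signal was 2164 and 2146.5 at 6 h, 5261 and 4913 at 24 h, 4319 and 4079.5 at 48 h and 2837 and 3195 at 72 h, against 3524.5 and 3531 in the control. It fell by 0.71 ± 0.07 on the log2 scale at 6 h (limma adjusted p = 4.45e-06) and rose by 0.53 ± 0.066 at 24 h (limma adjusted p = 4.21e-05). Smaller changes passed at 48 h (0.25, limma adjusted p = 0.0123) and 72 h (-0.23, limma adjusted p = 0.0167). These ended without control array 1, control array 2 or 48 h array 1 (limma adjusted p 0.0569 to 0.102) at 48 h and without control array 1, control array 2 or 72 h array 1 (limma adjusted p 0.0663 to 0.152) at 72 h. GH3.8 and GH3.2, both of which act on auxin, thus differed in direction at 6 h.

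GH3.7 had signals of 415 and 402 at 6 h, 451 and 447 at 24 h, 457 and 445 at 48 h and 309 and 419.8 at 72 h, against 310.1 and 332 in the control. It rose by 0.48 ± 0.15 at 24 h (limma adjusted p = 0.023) and 0.49 ± 0.15 at 48 h (limma adjusted p = 0.0272). Both calls ended without any 1 of the 4 arrays compared, with adjusted p from 0.0528 to 0.124, and with the probe sets of GH3.7 averaged its 48 h change was -0.12. GH3.6 rose at 24 h by 0.30 ± 0.092 (limma adjusted p = 0.0221), with signals of 919 and 1040.2 at 6 h, 1223 and 1235 at 24 h, 1159 and 1176 at 48 h and 1239 and 1073 at 72 h, against 983 and 1016 in the control. That call ended in the same way (limma adjusted p from 0.0584 to 0.102). The calls of GH3.7 at 24 h (0.38, limma adjusted p = 0.0799) and GH3.6 at 24 h (0.20, limma adjusted p = 0.14) ended with median centring. The call of GH3.7 at 48 h (0.29, limma adjusted p = 0.197) ended with quantile normalization. The call of GH3.7 at 24 h (0.68, limma adjusted p = 0.382) ended when probe sets were averaged. The other GH3.7 probe sets in that average had mean signals of 5.2, below the filter level, and 47.0, against 399 for the first. GH3.4 did not pass at any time, with changes from 0.059 to 0.41 and arrays between 262 and 391. All 6 tested GH3 genes were higher at 24 h than in the control, and 5 passed, with the GH3.6 and GH3.7 calls limited as above. Over all tested probe sets 20.6% rose at 24 h, and in the brighter set 29.7%.

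ARF23 had the largest change among the 16 tested ARF genes. At 6, 24, 48 and 72 h 31.2%, 56.2%, 50% and 43.8% of the 16 rose. Falls were 0%, 12.5%, 0% and 6.25% of them. In the brighter set 28%, 29.7%, 29.8% and 30.1% rose, and 25.4%, 27.8%, 18.9% and 25.4% fell. Rises thus outnumbered falls at each time with the deposited scaling, in the ARF genes as in the brighter set. Among the ARF genes this depended on the scaling at 72 h. With median centring the 72 h rises of ARF1, ARF9, ARF12, ARF16 and ARF17 ended. ARF3, ARF4 and ARF22 then passed as falls at 72 h, with changes of -0.38, -0.42 and -0.41. ARF23 and its relative ARF24 are transcription factors known in rice for acting together on RMD, a formin gene that organises actin in root cells. ARF23 was the brightest ARF gene, with signals of 3059 and 2986 at 6 h, 12304.5 and 9880.3 at 24 h, 4547.5 and 4427 at 48 h and 4795 and 4941 at 72 h, against 2727 and 2584 in the control. It rose by 2.05 ± 0.083 at 24 h (limma adjusted p = 1.96e-09), 4.15-fold, by 0.76 at 48 h (limma adjusted p = 2.61e-05) and by 0.87 at 72 h (limma adjusted p = 5.77e-06), and its change of 0.19 at 6 h did not pass. A second ARF23 probe set rose by 1.94 at 24 h and 0.88 at 48 h, while at 72 h it stood at -0.043 and did not pass (limma adjusted p = 0.677). The 72 h rise of ARF23 therefore was seen in 1 of its 2 probe sets.

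ARF24 had signals of 743 and 726 at 6 h, 1232 and 1277.5 at 24 h, 636 and 642 at 48 h and 415 and 426 at 72 h, against 516 and 529.7 in the control. It rose by 0.49 ± 0.091 at 6 h (limma adjusted p = 0.00108) and 1.26 ± 0.091 at 24 h (limma adjusted p = 3.22e-07), and both 24 h arrays stood far above all others. At 48 h it rose by 0.29 (limma adjusted p = 0.0299), a call that ended without control array 1, control array 2, 48 h array 1 or 48 h array 2 (limma adjusted p 0.074 to 0.127). At 72 h it fell by 0.31 on the log2 scale (limma adjusted p = 0.017), a call that ended without control array 2 (-0.29, limma adjusted p = 0.0734) or without 72 h array 1 (-0.29, limma adjusted p = 0.0629). At 72 h against 24 h ARF24 fell by 1.58 on the log2 scale (limma adjusted p = 5.26e-08), and ARF23 fell by 1.18 (limma adjusted p = 2.81e-07). The call of ARF24 at 48 h (0.12, limma adjusted p = 0.384) ended with quantile normalization. Both genes had their highest signals at 24 h.

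ARF7, ARF9 and ARF1 belong to the ARF genes whose proteins are classed as repressors, and they rose at every time. ARF7 had signals of 675 and 636 at 6 h, 966 and 897 at 24 h, 752.5 and 712 at 48 h and 809 and 861 at 72 h, against 477 and 392 in the control. Its changes were 0.60 ± 0.11, 1.11, 0.76 and 0.95 at the 4 times (limma adjusted p = 0.00114, 6.61e-06, 0.000267 and 3.54e-05). ARF9 had signals of 989.7 and 939.6 at 6 h, 1389 and 1548 at 24 h, 1129 and 1157 at 48 h and 1166 and 955.5 at 72 h, against 728 and 579 in the control. It rose by 0.57 ± 0.12, 1.18, 0.82 and 0.70 (limma adjusted p = 0.00298, 8.62e-06, 0.000308 and 0.000722). ARF1 had signals of 1024 and 935 at 6 h, 1114 and 1047.5 at 24 h, 1168 and 1260.0 at 48 h and 932 and 1007 at 72 h, against 599 and 613.5 in the control. Its rises of 0.69 ± 0.09, 0.83, 1.001 and 0.68 (limma adjusted p = 6.80e-05, 1.10e-05, 5.27e-06 and 8.83e-05) spanned less than those of ARF7 and ARF9. In these 3 genes all 8 low Pi arrays lay above both control arrays. The calls of ARF1 at 72 h (0.18, limma adjusted p = 0.233) and ARF9 at 72 h (0.20, limma adjusted p = 0.256) ended with median centring.

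The activator-class ARF genes with a tested probe set were ARF12, ARF16 and ARF17, and each rose at 72 h, calls that all ended with median centring. ARF12, studied in rice for its part in phosphate homeostasis, had signals of 425 and 359.7 at 6 h, 508 and 569.8 at 24 h, 514 and 539 at 48 h and 615 and 592 at 72 h, against 398 and 413 in the control. It rose by 0.57 ± 0.12 at 72 h (limma adjusted p = 0.00289), 0.41 at 24 h (limma adjusted p = 0.0192) and 0.38 at 48 h (limma adjusted p = 0.0351). The 24 h call ended without control array 1, control array 2 or 24 h array 2 (limma adjusted p 0.052 to 0.109), and the 48 h call without control array 1, control array 2, 48 h array 1 or 48 h array 2 (limma adjusted p 0.085 to 0.169). ARF16, whose mutants respond less to phosphate starvation, had signals of 577 and 361 at 6 h, 523 and 648 at 24 h, 599.5 and 588 at 48 h and 804 and 719 at 72 h, against 508 and 484 in the control. It rose at 72 h alone, by 0.62 ± 0.19 (limma adjusted p = 0.0205), and the call ended without control array 1, control array 2 or 72 h array 1 (limma adjusted p 0.0626 to 0.113). ARF17 rose by 0.25 ± 0.087 at 24 h (limma adjusted p = 0.0361) and 0.41 at 72 h (limma adjusted p = 0.00273), with signals of 1570.2 and 1473 at 72 h against 1125 and 1167.5 in the control. Its 24 h call ended without control array 1, control array 2, 6 h array 1, 6 h array 2 or 24 h array 1 (limma adjusted p 0.0519 to 0.234), and with median centring its 72 h change was -0.091. The calls of ARF12 at 24 h (0.31, limma adjusted p = 0.0903), ARF12 at 72 h (0.074, limma adjusted p = 0.706), ARF16 at 72 h (0.12, limma adjusted p = 0.668) and ARF17 at 24 h (0.15, limma adjusted p = 0.284) ended with median centring. The calls of ARF12 at 48 h (0.19, limma adjusted p = 0.311) and ARF17 at 24 h (0.20, limma adjusted p = 0.0908) ended with quantile normalization. Whether the 72 h changes of these genes differ from those at 24 h was tested, and at 72 h against 24 h they were 0.16, 0.38 and 0.16 and did not pass.

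The ARF genes targeted by the small RNAs miR160 and tasiR-ARF showed mixed values. ARF18 and ARF22, targets of miR160 with ARF10, moved apart at 24 h. ARF18 fell by 0.53 ± 0.10 on the log2 scale (limma adjusted p = 0.00134), with signals of 744 and 739.7 at 24 h against 1154 and 1000.4 in the control. ARF22 rose by 0.69 ± 0.099 (limma adjusted p = 0.00013), with signals of 1211 and 1145 at 24 h against 777 and 688 in the control. ARF10 passed at no time, and its arrays ranged from 62.1 to 212. Of the tasiR-ARF targets, ARF14 fell at 24 h by 0.56 ± 0.18 on the log2 scale (limma adjusted p = 0.0272), a call that ended without control array 1 (-0.62, limma adjusted p = 0.0597), without control array 2 (-0.50, limma adjusted p = 0.13) or without 24 h array 1 (-0.38, limma adjusted p = 0.173). ARF3 rose at 48 h by 0.42 ± 0.15 (limma adjusted p = 0.0494), and without 1 array this ended in 8 of 10 cases, with adjusted p from 0.0598 to 0.214. ARF2 and ARF15 passed at no time. ARF4, a regulator of grain size, had signals of 2311 and 2349.8 at 6 h, 3086 and 3001 at 24 h, 2475 and 2526 at 48 h and 2280.5 and 2077 at 72 h, against 2104 and 2023 in the control. It rose at 24 h by 0.56 ± 0.064 (limma adjusted p = 1.70e-05), at 48 h by 0.28 (limma adjusted p = 0.00534) and at 6 h by 0.18 (limma adjusted p = 0.0492). The 6 h call ended without control array 1, control array 2, 6 h array 1, 6 h array 2, 48 h array 1 or 48 h array 2 (limma adjusted p 0.0693 to 0.21). Its second probe set rose by 0.50 at 24 h and 0.36 at 48 h and fell by 0.24 on the log2 scale at 72 h (limma adjusted p = 0.0301), where the first had not passed. The call of ARF4 at 6 h (0.14, limma adjusted p = 0.228) ended with median centring. The calls of ARF3 at 48 h (0.27, limma adjusted p = 0.219) and ARF4 at 6 h (0.17, limma adjusted p = 0.052) ended with quantile normalization.

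**Figure D3:**
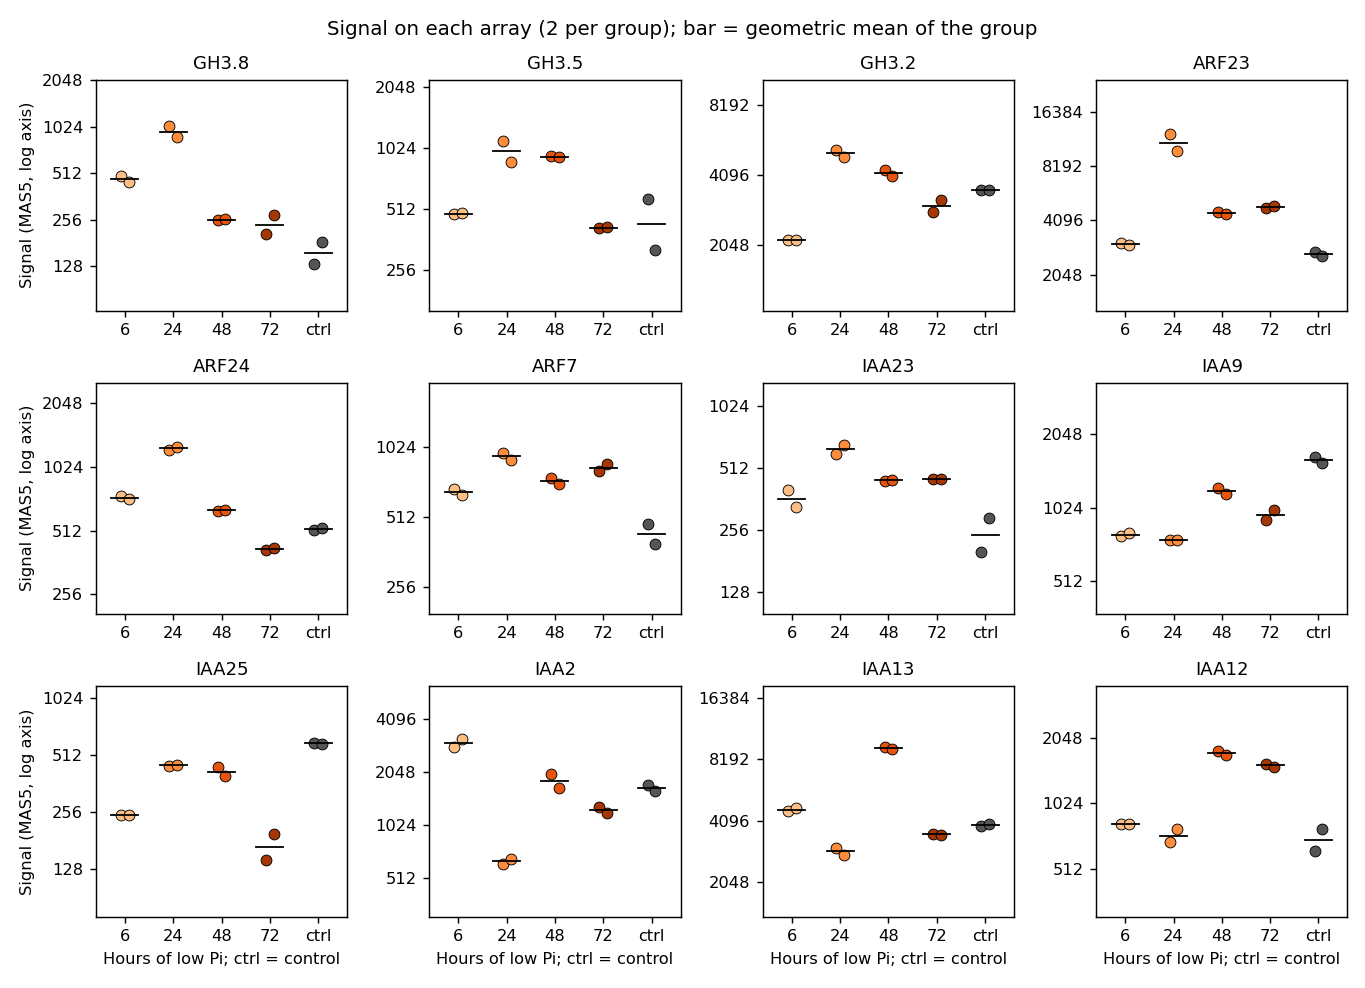
MAS5 signal on each array (points, log axis, 2 arrays per group) for 12 members at 6, 24, 48 and 72 h of low Pi and in the control (ctrl); black bars are geometric group means. GH3.8, ARF23 and ARF24 are highest at 24 h, IAA13 at 48 h (9352 and 9223), and IAA9 and IAA25 are highest in the control.

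Among the IAA repressors, IAA23, IAA6 and IAA3 rose at all 4 times. IAA23, known in rice for maintaining the quiescent centre of the root tip, had signals of 399 and 330.0 at 6 h, 598 and 661.5 at 24 h, 442 and 448.5 at 48 h and 452 and 454 at 72 h, against 201 and 294 in the control. It rose by 0.58 ± 0.17, 1.37, 0.87 and 0.90 at the 4 times (limma adjusted p = 0.0212, 4.52e-05, 0.00224 and 0.00147). All low Pi arrays lay above both control arrays, which were 201 and 294. The 6 h call ended without control array 1 (0.31, limma adjusted p = 0.201) or without 6 h array 1 (0.44, limma adjusted p = 0.162). A second IAA23 probe set rose at all 4 times too, by 1.52, 1.22, 1.61 and 1.39. Where the first probe set was highest at 24 h, the second was not, and between 6 and 24 h the mean over its probe sets was -0.074. The first probe set carries the x suffix, by which Affymetrix marks sets that may also match other transcripts. IAA6 had signals of 1066 and 1119 at 6 h, 1379 and 1292.5 at 24 h, 1206 and 1130.5 at 48 h and 1057 and 999.6 at 72 h, against 848 and 794.5 in the control. It rose by 0.41 ± 0.083, 0.70, 0.51 and 0.32 (limma adjusted p = 0.00187, 2.44e-05, 0.000552 and 0.00839), and the 72 h call ended without control array 2 (0.28, limma adjusted p = 0.0608) or without 72 h array 1 (0.28, limma adjusted p = 0.0553). With median centring its 72 h change was -0.17 and did not pass. The call of IAA23 at 72 h (0.40, limma adjusted p = 0.0793) ended with median centring. The call of IAA23 at 48 h (0.99, limma adjusted p = 0.0561) ended when probe sets were averaged.

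IAA17, the brightest IAA gene, had signals of 12855 and 12879 at 6 h, 19698 and 17407 at 24 h, 16199 and 15746 at 48 h and 15973.5 and 16102 at 72 h, against 12040.4 and 11441 in the control. It rose by 0.66 ± 0.055 at 24 h (limma adjusted p = 1.11e-06), 0.44 at 48 h (limma adjusted p = 6.46e-05) and 0.45 at 72 h (limma adjusted p = 4.32e-05). Its probe set has the s suffix, given to sets shared by several transcripts. IAA3 had signals of 12728.5 and 12844 at 6 h, 12745 and 12648 at 24 h, 12848 and 12989 at 48 h and 14068 and 15437 at 72 h, against 10946 and 10886 in the control. Its rises of 0.23 ± 0.047, 0.22, 0.24 and 0.43 (limma adjusted p = 0.00207, 0.00245, 0.0017 and 1.61e-05) were below 1.4-fold. With its probe sets averaged the changes at 6, 24 and 48 h were 1.56, 1.93 and 1.54. The other IAA3 probe set in that average was below the filter level, with a mean signal of 23.0 against 12814. IAA15 rose by 0.95 ± 0.049 at 24 h (limma adjusted p = 1.63e-08), with signals of 8819 and 8359 at 24 h against 4452 and 4436 in the control. Its rises at 48 h (0.20) and 72 h (0.17) ended without 48 h array 2 (0.19, limma adjusted p = 0.0567) at 48 h, and without control array 1, control array 2 or 72 h array 1 (limma adjusted p 0.0571 to 0.0967) at 72 h. Under median centring the 72 h changes of IAA3, IAA15 and IAA17 were -0.066, -0.32 and -0.049. The call of IAA3 at 24 h (0.12, limma adjusted p = 0.215) ended with median centring. The call of IAA3 at 72 h (0.93, limma adjusted p = 0.0994) ended when probe sets were averaged.

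Of the 23 IAA genes, 4 were highest at 48 h and 5 at 72 h, against 17.1% and 28.7% of all tested probe sets. IAA12, IAA30, IAA31 and IAA7 were among them. IAA12 had signals of 822 and 818 at 6 h, 678 and 775 at 24 h, 1773 and 1700.3 at 48 h and 1557 and 1507 at 72 h, against 614 and 777.5 in the control. It rose by 1.33 ± 0.11 at 48 h (limma adjusted p = 3.00e-06) and 1.15 at 72 h (limma adjusted p = 6.89e-06), and did not pass at 6 or 24 h (0.25 and 0.069). IAA30 had signals of 1519 and 1484.5 at 6 h, 1881 and 1813 at 24 h, 2784 and 2780.3 at 48 h and 2873 and 2831 at 72 h, against 1326 and 1505 in the control. It rose by 0.39, 0.98 and 1.01 ± 0.07 at 24, 48 and 72 h (limma adjusted p = 0.000809, 8.62e-07 and 4.52e-07). IAA31, its neighbour in the gene order of RefSeq assembly ASM3414082v1, had signals of 1167 and 1133 at 6 h, 1017 and 1089 at 24 h, 2493 and 2516 at 48 h and 1298 and 1553 at 72 h, against 917 and 928.5 in the control. It rose by 1.44 ± 0.089 at 48 h (limma adjusted p = 2.50e-07), 0.62 at 72 h (limma adjusted p = 0.000158) and 0.32 at 6 h (limma adjusted p = 0.0145). The 6 h call ended without control array 1, control array 2 or 6 h array 1 (limma adjusted p 0.053 to 0.0828). The mean signal was highest at 72 h in IAA30 and at 48 h in IAA31. IAA7 rose by 0.71, 1.01 and 1.21 ± 0.22 at 24, 48 and 72 h (limma adjusted p = 0.0231, 0.00435 and 0.00106), with signals of 283 and 308 at 72 h against 151 and 109 in the control. Its 24 h call ended without control array 2, 24 h array 1 or 24 h array 2 (limma adjusted p 0.065 to 0.173). The calls of IAA31 at 72 h (0.12, limma adjusted p = 0.366) and IAA7 at 24 h (0.61, limma adjusted p = 0.0626) ended with median centring. The calls of IAA31 at 48 h (0.83, limma adjusted p = 0.0609), IAA31 at 6 h (0.45, limma adjusted p = 0.289) and IAA31 at 72 h (0.55, limma adjusted p = 0.19) ended when probe sets were averaged. The other IAA31 probe set in that average was below the filter level, with a mean signal of 5.6 against 1411.

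IAA9, IAA18, IAA20 and IAA25 were highest in the control, the 4 members of which this was so. They were 4 of the 45 tested members and of the 23 tested IAA genes, against 16% of all tested probe sets. IAA9 had signals of 781 and 807 at 6 h, 756 and 757 at 24 h, 1237 and 1163 at 48 h and 911 and 1005.5 at 72 h, against 1656 and 1565 in the control. It fell at all 4 times, with changes of -1.02, -1.09, -0.42 and -0.75 (SE 0.08; limma adjusted p = 1.57e-06, 5.86e-07, 0.00215 and 2.29e-05). All low Pi arrays lay below both control arrays. IAA25 had signals of 246.5 and 249 at 6 h, 449.5 and 454 at 24 h, 441 and 398.5 at 48 h and 144 and 197 at 72 h, against 593 and 588 in the control. It fell by 1.25 ± 0.16 at 6 h (limma adjusted p = 6.17e-05) and by 1.81 at 72 h (limma adjusted p = 3.39e-06), both on the log2 scale. Its fall by 0.49 at 48 h (limma adjusted p = 0.0348) ended without control array 1, control array 2, 48 h array 1 or 48 h array 2 (limma adjusted p 0.0787 to 0.193), and its change of -0.39 at 24 h did not pass (limma adjusted p = 0.0794). Relative to 6 h, IAA25 was higher at 24 h by 0.87 (limma adjusted p = 0.000933). IAA20 fell at 6, 24 and 72 h, with changes of -0.81, -1.08 and -0.60 (SE 0.09; limma adjusted p = 2.69e-05, 1.75e-06 and 0.000307), with signals of 976.5 and 1097 at 6 h, 867 and 853 at 24 h, 1635.5 and 1534 at 48 h and 1111.5 and 1286 at 72 h, against 1739.9 and 1901 in the control. IAA18 fell at 6 h, by 1.14 ± 0.17 on the log2 scale (limma adjusted p = 0.000215), with signals of 221 and 176 at 6 h against 479.8 and 392 in the control.

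In 5 IAA genes the direction changed with time. IAA2 had signals of 2827 and 3157.5 at 6 h, 618 and 661 at 24 h, 2003 and 1656 at 48 h and 1296 and 1195 at 72 h, against 1741 and 1591 in the control. It rose by 0.84 ± 0.10 at 6 h (limma adjusted p = 3.47e-05) and fell by 1.38 on the log2 scale at 24 h (limma adjusted p = 3.60e-07). Between 6 and 24 h it fell by 2.22 on the log2 scale (limma adjusted p = 8.02e-09), the largest such fall of any member. Its fall by 0.42 on the log2 scale at 72 h (limma adjusted p = 0.00597) ended without control array 1 (-0.35, limma adjusted p = 0.0552) or without 72 h array 2 (-0.36, limma adjusted p = 0.05). IAA10, whose protein is bound and stabilised by a coat protein of rice dwarf virus, behaved in the opposite order. Its signal was 2268 and 2455 at 6 h, 6639 and 7092 at 24 h, 4231 and 4484.5 at 48 h and 4210.5 and 4259 at 72 h, against 4684 and 4397 in the control. It fell by 0.94 ± 0.06 on the log2 scale at 6 h (limma adjusted p = 2.35e-07) and rose by 0.60 at 24 h (limma adjusted p = 7.77e-06). IAA1 followed the same order as IAA10 and had signals of 6921 and 6825 at 6 h, 13747 and 13486.5 at 24 h, 8164 and 7648 at 48 h and 8291 and 8220.1 at 72 h, against 9690.5 and 9461 in the control. Its changes were -0.48, 0.51, -0.28 and -0.21 ± 0.05 (limma adjusted p = 4.89e-06, 2.07e-06, 0.000553 and 0.00262). A second, dim IAA1 probe set passed at 72 h alone, as a rise of 1.62 (limma adjusted p = 0.0447), and with both averaged the changes of IAA1 at 6, 48 and 72 h were 0.046, 0.33 and 0.71. The calls of IAA1 at 48 h (-0.10, limma adjusted p = 0.0989) and IAA1 at 72 h (-0.099, limma adjusted p = 0.0919) ended with quantile normalization.

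IAA13, studied in rice for lateral root initiation, had signals of 4558 and 4708 at 6 h, 3027 and 2779 at 24 h, 9352 and 9223 at 48 h and 3522.5 and 3507 at 72 h, against 3879 and 3940.4 in the control. The 48 h arrays stood far above all others. It rose by 1.25 ± 0.054 at 48 h (limma adjusted p = 1.39e-08) and 0.24 at 6 h (limma adjusted p = 0.00348), and fell by 0.43 on the log2 scale at 24 h (limma adjusted p = 4.05e-05). A fall by 0.15 at 72 h (limma adjusted p = 0.041) ended in 8 of the 10 cases in which 1 array was left out, with adjusted p from 0.0565 to 0.152. IAA21 fell at 6 h by 0.29 ± 0.05 on the log2 scale (limma adjusted p = 0.000262) and rose at 48 h by 0.16 (limma adjusted p = 0.0187), and the 48 h call ended without control array 2 (0.14, limma adjusted p = 0.122) or without 48 h array 2 (0.14, limma adjusted p = 0.116). IAA24 rose at 24 h by 0.89 ± 0.15 (limma adjusted p = 0.00048), with signals of 1619.6 and 1571 at 24 h against 916 and 813 in the control. IAA26 rose at 24 h by 0.55 ± 0.19 (limma adjusted p = 0.0378), which ended without control array 1, 24 h array 1, 24 h array 2, 48 h array 1 or 48 h array 2 (limma adjusted p 0.0504 to 0.199). IAA4, a dim gene, rose at 24 h by 0.76 ± 0.28 (limma adjusted p = 0.0483), which ended in 9 of the 10 cases, with adjusted p up to 0.243, and with its probe sets averaged its change was -0.72. IAA5 fell at 6 h by 0.34 on the log2 scale (limma adjusted p = 0.000159) and at 24 h by 0.14 (limma adjusted p = 0.0421), and the 24 h call ended in 6 cases, with adjusted p up to 0.2. The calls of IAA21 at 48 h (0.17, limma adjusted p = 0.093), IAA26 at 24 h (0.45, limma adjusted p = 0.089) and IAA4 at 24 h (0.66, limma adjusted p = 0.0959) ended with median centring. The calls of IAA26 at 24 h (0.51, limma adjusted p = 0.0541), IAA4 at 24 h (0.69, limma adjusted p = 0.076) and IAA5 at 24 h (-0.017, limma adjusted p = 0.832) ended with quantile normalization. The other IAA4 probe sets in the average above had mean signals of 19.0, below the filter level, and 58.6, against 120 for the first. IAA19 passed against the control at no time. Its 24 h arrays differed from each other, with 154 and 749.5, against 735 and 964 in the control.

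The steps between low Pi times use no control array. At 24 h against 6 h, 25 of 45 members rose (55.6%) and 7 fell, while 19.5% of all tested probe sets rose and 19.8% fell (28.6% and 28.9% of the brighter set). The rises were led by ARF23 (1.87 ± 0.083, limma adjusted p = 6.80e-09), IAA10 (1.54, limma adjusted p = 3.00e-09), IAA24 (1.25, limma adjusted p = 2.98e-05) and GH3.2 (1.24, limma adjusted p = 3.23e-08). At 72 h against 24 h, 12 rose and 17 fell (37.8%), while 23.1% of all tested probe sets rose and 20.3% fell (31.6% and 29% of the brighter set). With median centring these were 4 rises and 25 falls. No GH3 gene rose in this step and 3 fell, with changes of -2.005 in GH3.8, -1.26 in GH3.5 and -0.76 in GH3.2. IAA1, IAA10, IAA15, IAA24 and ARF22, which had risen at 24 h, then changed by -0.72, -0.70, -0.78, -0.85 and -0.60 and passed. With its probe sets averaged the IAA1 change was -0.11 (limma adjusted p = 0.74). IAA12 rose by 1.08 ± 0.11 (limma adjusted p = 7.60e-06), IAA2 by 0.96 (limma adjusted p = 8.89e-06) and IAA30 by 0.63 (limma adjusted p = 1.60e-05). IAA19 rose by 1.73 ± 0.50 (limma adjusted p = 0.0145) in this step, from the 24 h arrays that differed, and the call ended without 72 h array 1 (1.72, limma adjusted p = 0.0643) or without 72 h array 2 (1.75, limma adjusted p = 0.0611) and with no intensity trend (limma adjusted p = 0.0915). Without 24 h array 1 the IAA19 change was 0.59 and without 24 h array 2 it was 2.88. Over the same 48 h the median of the members was -0.10, and that of all tested probe sets 0.14.

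The study's own rule counts genes whose ratio of group means is beyond 2-fold. By that rule GH3.8 was induced at 6 h and IAA9, IAA18 and IAA25 were repressed, while 9.48% of all tested probe sets were above 2-fold and 7.72% below 0.5-fold. At 24 h, 7 members were above 2-fold (ARF7, ARF9, ARF23, ARF24, GH3.5, GH3.8 and IAA23) and 3 below 0.5-fold (IAA2, IAA9 and IAA20), against 10.9% and 10.1% of all. At 48 h, 5 were above (ARF1, GH3.5, IAA12, IAA13 and IAA31) and 0 below, against 7.86% and 6.24%. At 72 h, 3 were above (IAA7, IAA12 and IAA30) and IAA25 was below, against 13.7% and 8.55%. In the brighter set, which holds all 45 members, 7%, 8.58%, 5.34% and 5.84% were above 2-fold at 6, 24, 48 and 72 h, and 5.51%, 8.48%, 3.8% and 7.61% below 0.5-fold.

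The other auxin genes were matched by symbol, and many auxin genes have no such symbol in the tables used. Of auxin synthesis genes, TAA1, the tryptophan aminotransferase FIB, had signals of 1134 and 1255 at 6 h, 514 and 503 at 24 h, 941 and 855 at 48 h and 616 and 541 at 72 h, against 536 and 511 in the control. It rose by 1.19 ± 0.11 at 6 h (limma adjusted p = 3.02e-06) and 0.78 at 48 h (limma adjusted p = 0.000143), and at 24 h, the time of most family rises, its change was -0.043. YUCCA1, the flavin monooxygenase of the next step, rose by 1.80 ± 0.55 at 6 h (limma adjusted p = 0.0237) and 1.61 at 24 h (limma adjusted p = 0.0361) from signals of 33.1 and 16.6 in the control. The 6 h call ended without control array 2, 6 h array 1 or 6 h array 2 (limma adjusted p 0.0602 to 0.137), the 24 h call without control array 2, 6 h array 1, 6 h array 2, 24 h array 2, 48 h array 1 or 48 h array 2 (limma adjusted p 0.0501 to 0.204), and the mean over its probe sets passed at neither time. The 24 h call also ended with the error refitted (limma adjusted p = 0.0618 to 0.111).

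Of 8 tested genes on the transport list, 1, 4, 2 and 4 rose at 6, 24, 48 and 72 h and 3, 1, 2 and 2 fell. Over all tested probe sets 19%, 20.6%, 19.4% and 21.9% rose and 17.2%, 19.2%, 12.5% and 17.6% fell. LAX1, matched by name, is a bHLH gene of panicle branching and not a transporter, and it passed at no time. PID, a kinase that directs PIN efflux carriers, had signals of 865 and 914 at 6 h, 1746 and 1665 at 24 h, 1136.5 and 1215 at 48 h and 1803 and 1653 at 72 h, against 545 and 638 in the control. It rose at all 4 times, by 0.59 ± 0.094, 1.53, 0.99 and 1.55 (limma adjusted p = 0.000336, 7.76e-08, 8.20e-06 and 1.55e-07). The efflux carrier PIN9 had signals of 28.8 and 32.7 at 6 h, 362 and 360.0 at 24 h, 82.4 and 93.2 at 48 h and 153 and 139 at 72 h, against 98.2 and 67.5 in the control. It fell by 1.41 ± 0.30 on the log2 scale at 6 h (limma adjusted p = 0.00301) and rose by 2.15 at 24 h (limma adjusted p = 0.000111). Its rise of 0.84 at 72 h (limma adjusted p = 0.0455) ended in 7 of the 10 cases in which 1 array was left out, with adjusted p up to 0.238. PIN5A, another PIN gene, had signals of 192 and 230.0 at 6 h, 775 and 665 at 24 h, 163 and 214 at 48 h and 389 and 379 at 72 h, against 242 and 229 in the control. It rose by 1.61 ± 0.17 at 24 h (limma adjusted p = 1.18e-05) and 0.71 at 72 h (limma adjusted p = 0.00695), and its 24 h arrays lay above all others. The calls of PIN5A at 72 h (0.21, limma adjusted p = 0.424) and PIN9 at 72 h (0.34, limma adjusted p = 0.434) ended with median centring. The call of PIN9 at 72 h (0.65, limma adjusted p = 0.118) ended with quantile normalization. The calls of PIN9 at 6 h and PIN9 at 72 h ended with the error refitted (limma adjusted p = 0.0583 to 0.0847). LOC4346116, a PIN gene that the tables list as both PIN5B and PIN5C, had signals of 30.6 and 45.1 at 6 h, 127.5 and 213 at 24 h, 62.0 and 82.1 at 48 h and 39.1 and 85.8 at 72 h, against 188 and 246.5 in the control. It fell at 6, 48 and 72 h, with changes of -2.53 ± 0.45, -1.59 and -1.89 (limma adjusted p = 0.00075, 0.0171 and 0.00536). The 48 h call ended without control array 2 (-1.40, limma adjusted p = 0.115) or without 48 h array 1 (-1.39, limma adjusted p = 0.109). BG1, a regulator of auxin transport and grain size, fell at all 4 times, with changes of -0.77, -1.28, -0.96 and -0.69. The TOPLESS-related co-repressors, of which 2 genes carry the name TPR1, rose at 48 h by 0.35 and 0.37 (limma adjusted p = 0.00579 and 0.000517). With the deposited scaling and 1 probe set per gene they passed at no other time. The call at 0.35 ended with no intensity trend (limma adjusted p = 0.0641). With median centring the same gene passed as a fall at 72 h (-0.37, limma adjusted p = 0.0129). It also did so when probe sets were averaged (-0.27, limma adjusted p = 0.004).

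Of 12 tested early response genes and root targets, 4, 3, 1 and 1 rose and 3, 3, 4 and 4 fell at the 4 times. The shares over all tested probe sets were 19%, 20.6%, 19.4% and 21.9% for rises and 17.2%, 19.2%, 12.5% and 17.6% for falls. DAO, a dioxygenase that oxidises auxin irreversibly, had signals of 7753 and 7581 at 6 h, 19299.7 and 16845 at 24 h, 7596 and 8209 at 48 h and 2061 and 2913 at 72 h, against 15427 and 13495 in the control. It fell at 6, 48 and 72 h, with changes of -0.91 ± 0.13, -0.87 and -2.56 (limma adjusted p = 0.000123, 0.000252 and 3.21e-08), and its change of 0.32 at 24 h did not pass. SAUR39, a negative regulator of auxin synthesis and transport in rice, had signals of 2265 and 2339 at 6 h, 1957.5 and 1945 at 24 h, 3448 and 3420.1 at 48 h and 3199 and 3211 at 72 h, against 4422 and 4509 in the control. It fell at all 4 times, with changes of -0.96, -1.19, -0.38 and -0.48 (SE 0.05; limma adjusted p = 5.67e-08, 4.09e-09, 0.000166 and 1.95e-05). The expansin EXPA8, a cell wall loosening protein of roots, rose by 1.45 ± 0.20, 0.66, 1.53 and 1.62 (limma adjusted p = 0.000108, 0.0193, 0.000102 and 4.82e-05). Its 24 h call ended without control array 1 (0.39, limma adjusted p = 0.186) or without 24 h array 1 (0.40, limma adjusted p = 0.175). The call of EXPA8 at 24 h ended with the error refitted (limma adjusted p = 0.0749 to 0.0822). Of the ILL genes, related to enzymes that release auxin from amino acid conjugates in Arabidopsis, ILL2 rose by 1.24 ± 0.28 at 6 h (limma adjusted p = 0.00429) and 1.79 at 24 h (limma adjusted p = 0.000267). ILL8 was lower at 24 h (limma adjusted p = 0.0219), with 13.5 and 7.0 at 24 h, both under the filter level, against 78.4 and 77.7 in the control. That call ended without control array 1 (-2.999, limma adjusted p = 0.0899), without control array 2 (-3.01, limma adjusted p = 0.0872) or without 24 h array 2 (-2.53, limma adjusted p = 0.0879).

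**Figure D4:**
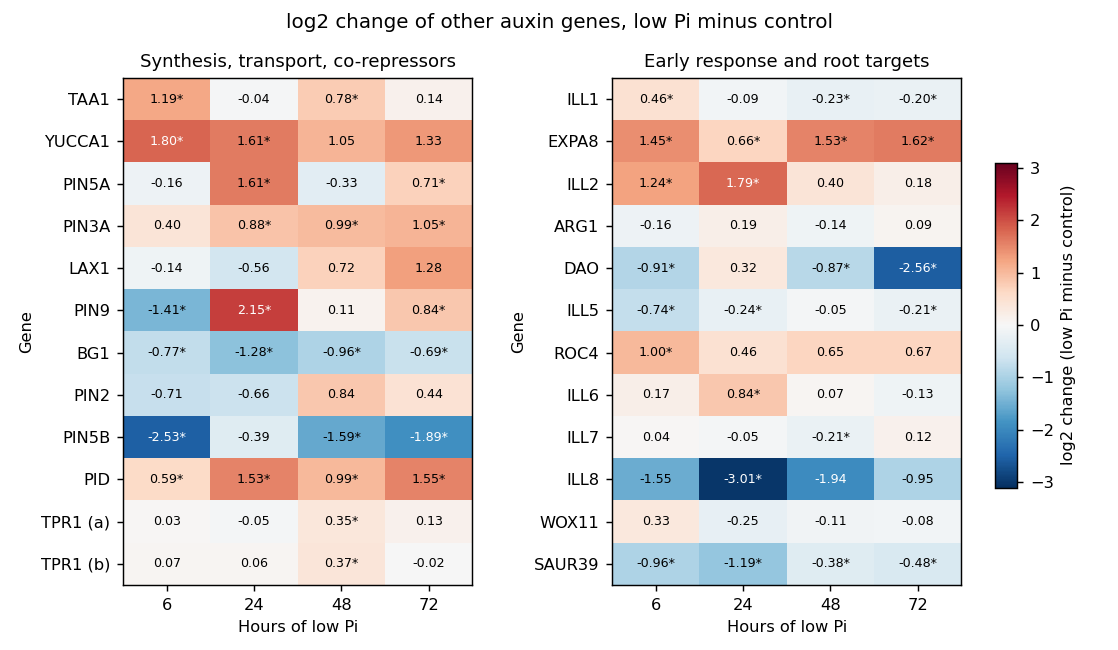
log2 change of the other tested auxin genes at 6, 24, 48 and 72 h of low Pi minus control; asterisks mark adjusted p under 0.05 (limma). TPR1 (a) and (b) are 2 genes of that name, PIN5B is LOC4346116, and LAX1 is a bHLH gene; PID and EXPA8 rise and BG1 and SAUR39 fall at all 4 times.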

How the data were processed

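RNA of rice seedlings was hybridised to 10 Affymetrix rice arrays, and the authors deposited linear signal intensity values, 1 per probe set. Per the submitters' processing notes these were made with GCOS and MAS5, in versions not given in the sources used here. Intensities were converted to log2 without an offset, and the deposited scaling was kept. The 123 control probe sets were left out, and 34355 of the other 57258 had a mean log2 signal above 4.579 (the 40th percentile) and were tested. limma 3.58.1 in R 4.3.3 fitted the 5 group means to all 10 arrays with eBayes and an intensity trend (5 residual and 6.5 prior degrees of freedom). Tests were two-sided, and p was adjusted with Benjamini-Hochberg over all tested probe sets of a comparison. The script was tested on simulated data. The number of arrays limits the precision. Each p-value sets differences of group means against an error. That error pools the spread between the 2 arrays of each group and is moderated across probe sets.

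Genes were named from the platform annotation and a RefSeq gene table (assembly ASM3414082v1), and sequences were not used here. The members and gene lists were chosen with earlier results of these data known. Members given with values on every array are, per family, the 5 with the largest change against the control among those that passed the F-test with groups that did not overlap, those called the same way at all 4 times, and the brightest. Other members given array by array, IAA1, IAA10, IAA13, IAA20, IAA30, ARF4, ARF12 and ARF16 among them, were chosen after their values were seen. Of each list of other auxin genes, up to 3 with the largest changes that passed are named, and LAX1, PID, BG1, SAUR39 and EXPA8 were chosen after their values were seen, as was the split of the root markers. Alternatives covered filters, scaling, an offset of 16, a floor, the intensity trend, the arrays in the fit, a replicate block, averaged probe sets and leaving out each array. Leaving out both 72 h arrays, and running the alternatives on the other auxin genes, were chosen after seeing the data. Replicate numbers came from the titles. Deviations of same-numbered arrays from their group means correlated between -0.009 and 0.017, so the numbers were not taken to pair arrays.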

Additional observations from a re-analysis of the deposited data

How the results depend on the processing

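The number of members called stayed within 1.5 times the reported one under every alternative run. Leaving out each array in turn gave 20 to 25 calls at 6 h (21 as reported), 25 to 33 at 24 h (33), 18 to 26 at 48 h (26) and 19 to 25 at 72 h (25), all against the control. It gave 27 to 32 at 24 h against 6 h (32), 24 to 29 at 72 h against 24 h (29) and 36 to 39 by the F-test (40). Such fits assume that the lone array of a group varies like the other groups. The replicate block gave 21, 32, 25 and 24 calls at 6, 24, 48 and 72 h, 32 and 28 in the steps between times and 40 by the F-test. It ended 6 calls, with adjusted p from 0.0511 to 0.0563, namely ARF3 at 48 h, ARF4 at 6 h, IAA4 and IAA5 at 24 h, IAA13 at 72 h and IAA23 at 72 h against 24 h. The numbers do not pair the arrays, so this is no sign of a weaker effect.

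Without both 72 h arrays 24, 33 and 25 members passed at 6, 24 and 48 h and 37 by the F-test. Of the calls of the other auxin genes, 10 of 13, 8 of 12, 7 of 12 and 6 of 11 held under every alternative at 6, 24, 48 and 72 h.

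Scaling mattered most at 72 h, where median centring turned 17 rises and 8 falls into 5 and 20, while quantile normalization gave 18 and 7. At 24 h median centring gave 18 rises and 9 falls (26 and 7 as reported), and at 72 h against 24 h 4 and 25 (12 and 17). With no intensity trend the 6 h split was 8 rises and 9 falls. Under median centring these 72 h changes against the control reversed: ARF17 (-0.091), ARF22 (-0.41), ARF3 (-0.38), ARF4 (-0.42), GH3.6 (-0.29), IAA15 (-0.32), IAA17 (-0.049), IAA24 (-0.47), IAA3 (-0.066), IAA5 (-0.41), IAA6 (-0.17), ARG1 (-0.41), ILL7 (-0.38), TAA1 (-0.36) and TPR1 (-0.37). Of these, ARF22, ARF3, ARF4, GH3.6, IAA24, IAA5, ARG1, ILL7, TAA1 and TPR1 had not passed as reported. So did changes at 72 h against 24 h of ARF18 (-0.056), IAA13 (-0.12), IAA3 (-0.18), IAA5 (-0.17) and IAA9 (-0.060). Averaging the probe sets of a gene reversed GH3.7 at 48 h (-0.12), IAA1 at 6, 48 and 72 h (0.046, 0.33 and 0.71), IAA4 at 24 h (-0.72) and TPR1 at 72 h (-0.27). It also reversed IAA23 at 24 h against 6 h (-0.074) and at 72 h against 24 h (0.030), and IAA3 at 72 h against 24 h (-1.003). In GH3.7, IAA3, IAA4 and IAA23 the averages gave equal weight to a probe set below the filter level. The cause of these reversals was not tested.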
